A study of Mus musculus with 8 samples.

Results

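The 10 genes described here belong to the antioxidant response governed by the transcription factor Nrf2. They are Nfe2l2, which encodes Nrf2, its inhibitor gene Keap1, and Nqo1, Hmox1, Gclc, Gclm, Txnrd1, Srxn1, Gpx4 and Sod2. They were taken by symbol from an iCM count table of 53921 rows that name a gene, and all 10 were found in 1 row each. The table covers mouse induced cardiomyocytes, which are fibroblasts pushed towards a heart muscle identity by forced transcription factors. Every library came from cells given MGT, the usual name for the trio Mef2c, Gata4 and Tbx5, and was collected on day 5. The control group carried shNT, taken here as a non-targeting hairpin, and the other group carried shGrhl3, a hairpin against the Grainyhead-like factor Grhl3, both delivered by lentivirus. Each group had 2 RNA-seq libraries, with 16102839 to 19822541 counts per library. Whether replicates were separate cultures is not stated in the labels; the p-values therefore cover only library-to-library spread, possibly technical.

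In unstressed cells the Keap1 protein binds Nrf2 and hands it to a Cul3 ubiquitin ligase for destruction. Oxidants and electrophiles modify cysteines of Keap1, Nrf2 then accumulates, and with small Maf proteins it binds antioxidant response elements near genes for glutathione synthesis, thioredoxin reduction, quinone reduction and haem breakdown. Gpx4 and Sod2 are antioxidant enzymes that are less tightly tied to Nrf2. Much of this control acts on the Nrf2 protein, which RNA-seq does not measure. In the heart the pathway is known for protection against oxidative injury.

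Grhl3 itself was at 31 and 14 counts in shNT and 11 and 19 in shGrhl3 (log2 fold change -0.72, SE 0.53, edgeR quasi-likelihood adjusted p = 0.311), so a fall in its mRNA was not detected at this depth. The hairpin columns of the table are named shGrhl1 and shGrhl2, and were read as replicates of shGrhl3 because Grhl3 is the only hairpin target that the labels name. Heart muscle markers were present in every library: the heart muscle list of 10 genes summed to 4610 and 4647 CPM in shNT and 5585 and 5475 CPM in shGrhl3, most of it Tnnt2 (3214 and 3208 CPM on average). Of these 10, 4 were called higher and 0 lower: Myh6 went from 20.6 ± 0.284 to 251 ± 14.0 CPM (12.2-fold, adjusted p = 1.54e-17), and Tnni3, Mybpc3 and Myl7 were 6.00-, 2.17- and 1.64-fold higher. Myl2 and Pln were near 1 CPM (Myl2 1.47 ± 0.210 and 1.33 ± 0.445, Pln 1.04 ± 0.581 and 1.35 ± 0.140; SD, n = 2). Fibroblast markers were also present, at 11039 and 11271 CPM in shNT and 12032 and 12830 CPM in shGrhl3 for 10 genes, but 5 of the 10 were called lower and 2 higher (median log2 fold change -0.24). Col1a1, the most abundant, averaged 4201 CPM in shNT and 6084 CPM in shGrhl3, while Pdgfra, Tcf21, Ddr2, Dcn and Thy1 fell, by 1.14, 0.71, 0.70, 0.62 and 0.32 on the log2 scale. These markers were named after their values were seen, and the part of such shifts in the results on the 10 genes was not tested. The 20 leukocyte and macrophage markers summed to 683 and 940.3 CPM in shNT against 159 and 127 CPM in shGrhl3. Of the 20, 0 were at 0 in all libraries and 15 were tested, of which 12 were called lower and 1 higher. Most of both sums was Lyz2 (group means of 550 and 88.6 CPM). The gene that rose was Csf1r (2.46-fold, adjusted p = 1.25e-06). Over all genes tested, 17.2% were called higher and 18.1% lower, and the heart muscle and fibroblast counts are read against the same shares. In bulk RNA, fewer cells of a type and less RNA per cell cannot be told apart. The 18S ribosomal RNA row Rn18s held 0.573% and 2.00% of counts in shNT and 0.0959% and 0.156% in shGrhl3; with rRNA-related rows left out, the calls of all 10 genes were as reported here. CPM here means counts per TMM-scaled library size.

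Promoter windows close to the start sites were searched for the letters of antioxidant response elements. Elements further from a start site were not looked for. RefSeq promoter windows (GRCm38.p6, 250 bases before to 50 after a start site) were matched by symbol for 8 of the 10 genes, in 13 windows; Gclc and Hmox1 were not matched. The core of the element, TGACNNNGC on either strand, was found at 14.0% of all 27025 genes with a window (12.4% of 32851 windows). Of the other pathway genes listed further below, 24 of 162 with a window held it (14.8%). Of the 8 genes with a window here, 4 held it. The matches were TGACTCCGC at Nfe2l2 (bases -240 to -232 from the start site), TGACGGTGC at Gclm (-134 to -126, minus strand), TGACAAAGC at 1 of 3 Txnrd1 windows (-92 to -84, minus strand) and TGACCTAGC at Srxn1 (29 to 37, minus strand). Srxn1 also held TGAGTCAGC, the joint Nrf2 and AP-1 form, at -45 to -37, which occurs in 0.414% of all windows. The AP-1 letters TGANTCA, which lie inside that form, matched there and again at -102 to -96 of Srxn1 and in 7.81% of all windows. The related form TGACTCAGC, in 0.454% of all windows, and the Grainyhead letters AACCNGTT, in 2.09%, matched at 0 of the 8 genes. A match is a description of letters, not of binding.

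The windows of 4 of the 5 genes that passed the expression test are shown, with every motif match in capitals. They are Srxn1 (chr2:152105274-152105573, plus strand), Keap1 (chr9:21239283-21239582, minus strand), Nqo1 (chr8:107403156-107403455, minus strand) and Gpx4 (chr10:80053409-80053708, plus strand, 1 of its 4 windows), each written 5′ to 3′ along the gene. Only Srxn1 holds capitals, which says nothing of elements outside these windows.
Srxn1: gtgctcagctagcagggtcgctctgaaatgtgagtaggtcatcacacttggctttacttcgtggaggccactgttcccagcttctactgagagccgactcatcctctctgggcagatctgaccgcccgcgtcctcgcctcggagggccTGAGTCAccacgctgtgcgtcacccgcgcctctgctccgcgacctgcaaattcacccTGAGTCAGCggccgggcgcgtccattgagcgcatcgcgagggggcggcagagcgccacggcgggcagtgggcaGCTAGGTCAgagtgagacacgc
Keap1: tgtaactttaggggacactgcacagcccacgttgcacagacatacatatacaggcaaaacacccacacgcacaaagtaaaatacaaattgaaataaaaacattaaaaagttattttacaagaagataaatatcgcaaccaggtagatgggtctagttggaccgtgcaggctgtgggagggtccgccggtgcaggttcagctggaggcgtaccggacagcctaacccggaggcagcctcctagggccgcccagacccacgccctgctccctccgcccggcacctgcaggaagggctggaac
Nqo1: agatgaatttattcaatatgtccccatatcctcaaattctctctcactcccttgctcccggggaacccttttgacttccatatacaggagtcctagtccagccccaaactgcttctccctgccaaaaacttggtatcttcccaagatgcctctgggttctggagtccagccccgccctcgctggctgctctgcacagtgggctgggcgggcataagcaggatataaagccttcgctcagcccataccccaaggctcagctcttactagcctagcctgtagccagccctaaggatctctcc
Gpx4: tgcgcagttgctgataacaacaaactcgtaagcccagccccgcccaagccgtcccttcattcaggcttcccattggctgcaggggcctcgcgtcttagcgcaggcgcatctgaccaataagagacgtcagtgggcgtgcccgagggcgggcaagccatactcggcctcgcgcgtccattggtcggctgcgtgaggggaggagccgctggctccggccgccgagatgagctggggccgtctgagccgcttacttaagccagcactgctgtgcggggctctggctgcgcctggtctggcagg

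The 10 genes did not move together. In shGrhl3 cells Keap1, Nqo1 and Srxn1 were higher, Gpx4 and Gclc were lower, and Nfe2l2, Hmox1, Gclm, Txnrd1 and Sod2 did not pass the test. All 10 were tested, and 5 of the 10 passed the quasi-likelihood test of edgeR (adjusted p of 0.05 or less), against 35.3% of all 15324 genes tested. Among the 10615 genes with a mean level at least that of Nqo1, the lowest of the 10, the share was 42.9%. The 3 risers compare with 17.2% of all genes higher, and the 2 fallers with 18.1% lower. The median log2 fold change of the 10 genes was -0.02, beside -0.01 over all genes tested, and 5 had a positive and 5 a negative value. The 2 libraries of each group did not overlap for 9 of the 10, with Sod2 as the exception, a separation also seen for 66.5% of all genes.

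**Figure D1:**
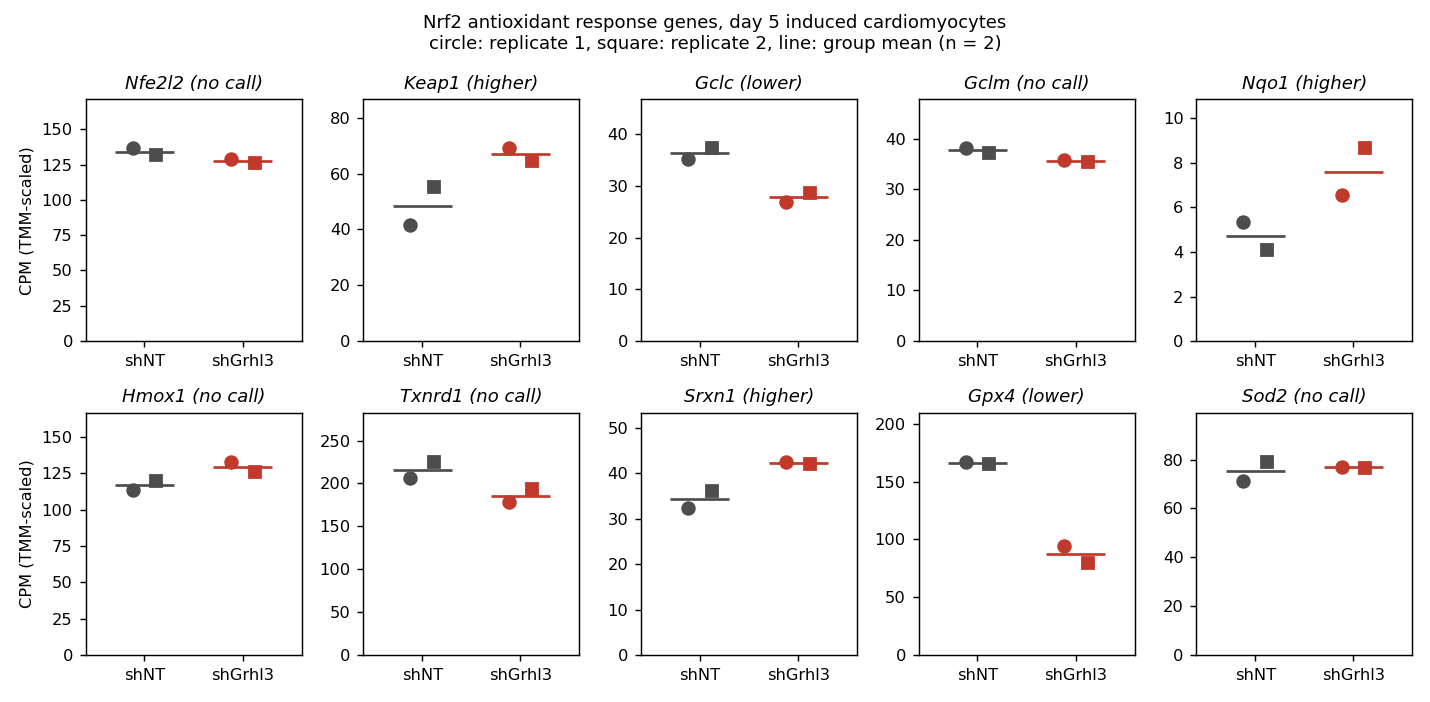
CPM of each of the 10 genes in the 2 shNT and 2 shGrhl3 libraries, with the group mean as a line and the vertical axis starting at 0. Gpx4 has the widest gap, from 166 and 167 CPM in shNT to 79.8 and 94.3 CPM in shGrhl3, and the Sod2 points overlap.

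Nfe2l2, the gene of Nrf2 (chromosome 2, 75675513 to 75704663, GRCm38.p6), was at 137 and 131 CPM in shNT and 129 and 126 CPM in shGrhl3. The shGrhl3 libraries were slightly lower, and the difference was small beside its error (log2 fold change -0.07, SE 0.09, 95% interval -0.25 to 0.11, adjusted p = 0.569). Keap1 (chromosome 9, 21229730 to 21239332) was at 41.6 and 55.0 CPM in shNT and 69.2 and 64.6 CPM in shGrhl3. Both shGrhl3 libraries lay above both shNT libraries, of which replicate 1 was the lower (1.39-fold, log2 fold change 0.47, SE 0.12, adjusted p = 0.00263). Without shNT replicate 1 the Keap1 log2 fold change was 0.28 and the call was lost (adjusted p = 0.1502). Within a library, where scaling plays no part, there were 0.304 and 0.419 Keap1 counts per Nfe2l2 count in shNT and 0.536 and 0.511 in shGrhl3. The ratio was thus higher in both shGrhl3 libraries than in either shNT library.

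**Figure D2:**
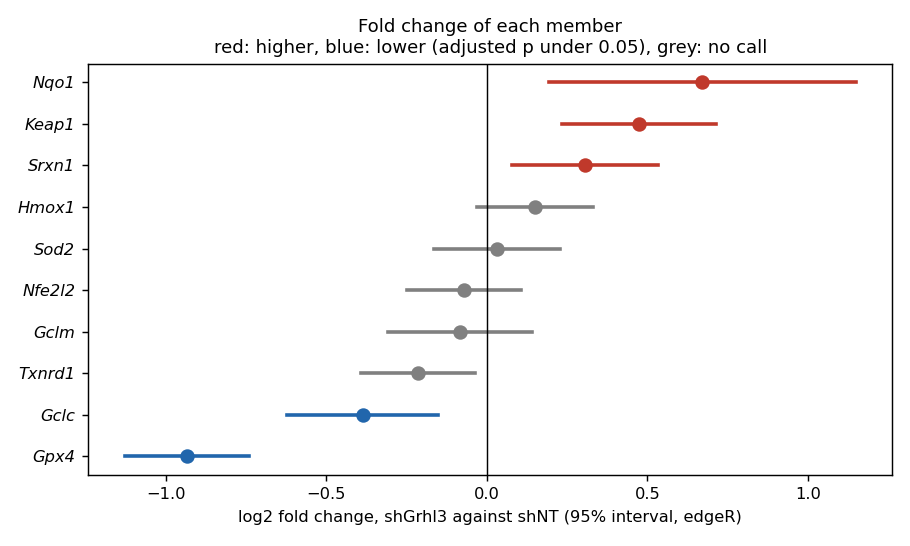
Log2 fold change (shGrhl3 against shNT) of each of the 10 genes with its 95% interval from edgeR. Gpx4 lies lowest at -0.93 and Nqo1 highest at 0.67, which also has the widest interval.

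Glutathione synthesis starts with glutamate-cysteine ligase, whose catalytic subunit is encoded by Gclc and whose modifier subunit is encoded by Gclm. Gclc (chromosome 9, 77754535 to 77794489) fell from 35.3 and 37.4 CPM in shNT to 26.9 and 28.7 CPM in shGrhl3 (1.31-fold lower; log2 fold change -0.39 with SE 0.11, adjusted p = 0.0104). Gclm (chromosome 3, 122245487 to 122267215) was at 38.2 and 37.2 CPM in shNT and 35.8 and 35.4 CPM in shGrhl3 (log2 fold change -0.08, SE 0.11, 95% interval -0.31 to 0.14, adjusted p = 0.588). The shGrhl3 libraries were the lower for both subunits, with a wide gap for Gclc and a narrow one for Gclm. Counts of Gclc per count of Gclm were 0.925 and 1.01 in shNT and 0.752 and 0.812 in shGrhl3. The Gclc call was lost without shNT replicate 2 (log2 fold change -0.34, adjusted p = 0.0899) and without shGrhl3 replicate 1 (-0.34, adjusted p = 0.0550).

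Nqo1 and Hmox1 encode detoxifying enzymes, a quinone reductase and the inducible haem oxygenase. Nqo1 (chromosome 8, 107388225 to 107403205) had only 102 and 65 counts in shNT and 131 and 162 in shGrhl3, which is 5.33 and 4.09 CPM against 6.53 and 8.67 CPM. The shGrhl3 libraries were the higher (1.59-fold, log2 fold change 0.67, SE 0.23, adjusted p = 0.0268), and the groups did not overlap. Without shNT replicate 2 the Nqo1 log2 fold change was 0.51 (adjusted p = 0.177), and without shGrhl3 replicate 2 it was 0.48 (adjusted p = 0.205). The DESeq2 Wald test gave Nqo1 an adjusted p of 0.0798. Hmox1 (chromosome 8, 75093618 to 75100593) was at 114 and 120.0 CPM in shNT and 133 and 126 CPM in shGrhl3 (log2 fold change 0.15, SE 0.09, 95% interval -0.03 to 0.33, adjusted p = 0.196). Macrophages also express Hmox1, and its level in shGrhl3 was not below that in shNT although the summed leukocyte and macrophage markers (812 ± 182 and 143 ± 22.9 CPM) were lower there; their part in the Hmox1 level was not tested.

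Txnrd1 and Srxn1 serve the thioredoxin system, as the cytosolic thioredoxin reductase and as sulfiredoxin, which repairs over-oxidised peroxiredoxins. Txnrd1 (chromosome 10, 82833951 to 82897724) was at 206 and 225 CPM in shNT and 178 and 193 CPM in shGrhl3 (log2 fold change -0.21, SE 0.09, 95% interval -0.39 to -0.04, adjusted p = 0.0543). All shGrhl3 values lay below the shNT values, just short of the threshold; Txnrd1 passed it with limma-voom (0.049995), with a minimum count of 50 (0.0442) and without shGrhl3 replicate 2 (0.0243). Eid3 and Gm38560, which overlap Txnrd1 in RefSeq, held at most 16 and 8 counts in a library. Srxn1 (chromosome 2, 152105524 to 152111376) was at 32.5 and 36.2 CPM in shNT and 42.6 and 42.1 CPM in shGrhl3 (1.24-fold, log2 fold change 0.31, SE 0.11, adjusted p = 0.0328). The Srxn1 libraries did not overlap, but the call was lost with the DESeq2 Wald test (adjusted p = 0.0784), without shNT replicate 1 (log2 fold change 0.22, adjusted p = 0.308) and without shGrhl3 replicate 1 (0.30, adjusted p = 0.0734). Within a library, Srxn1 had 0.158 and 0.161 counts per Txnrd1 count in shNT and 0.239 and 0.218 in shGrhl3. Both genes hold the antioxidant response element core in a window, and their fold changes had opposite signs; the difference between them was not tested.

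Gpx4, the selenium-dependent peroxidase that reduces lipid hydroperoxides in membranes and guards against ferroptosis (chromosome 10, 80047166 to 80056439), showed the widest difference of the 10 genes. It was at 167 and 166 CPM in shNT and 94.3 and 79.8 CPM in shGrhl3. The shNT libraries nearly coincide and lie far above both shGrhl3 libraries (1.91-fold lower, log2 fold change -0.93, SE 0.09, 95% interval -1.13 to -0.74, adjusted p = 3.94e-08). Of all genes tested, 6.51% had a lower fold change. The processed pseudogene row Gpx4-ps2 held nearly as many counts, with 0.824 and 0.823 counts per Gpx4 count in shNT and 0.820 and 0.835 in shGrhl3. No source used here says how reads matching both were counted, so the level of Gpx4 is uncertain. With the rows of Gpx4 and Gpx4-ps2 summed, a choice made after seeing the data, the log2 fold change was -0.93 (SE 0.09, adjusted p = 1.79e-08). With so steady a ratio between the rows, their sum had to give nearly the same fold change, so it is no separate support. Without each single library the Gpx4 log2 fold change was -1.06 to -0.80.

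Sod2, the manganese superoxide dismutase of mitochondria (chromosome 17, 13007839 to 13018119), was at 71.2 and 79.15 CPM in shNT and 76.9 and 76.7 CPM in shGrhl3. The shGrhl3 libraries lay between the shNT libraries (log2 fold change 0.03, SE 0.10, 95% interval -0.16 to 0.23, adjusted p = 0.832). Gpx4 counts per Sod2 count were 2.35 and 2.09 in shNT and 1.23 and 1.04 in shGrhl3.

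**Figure D3:**
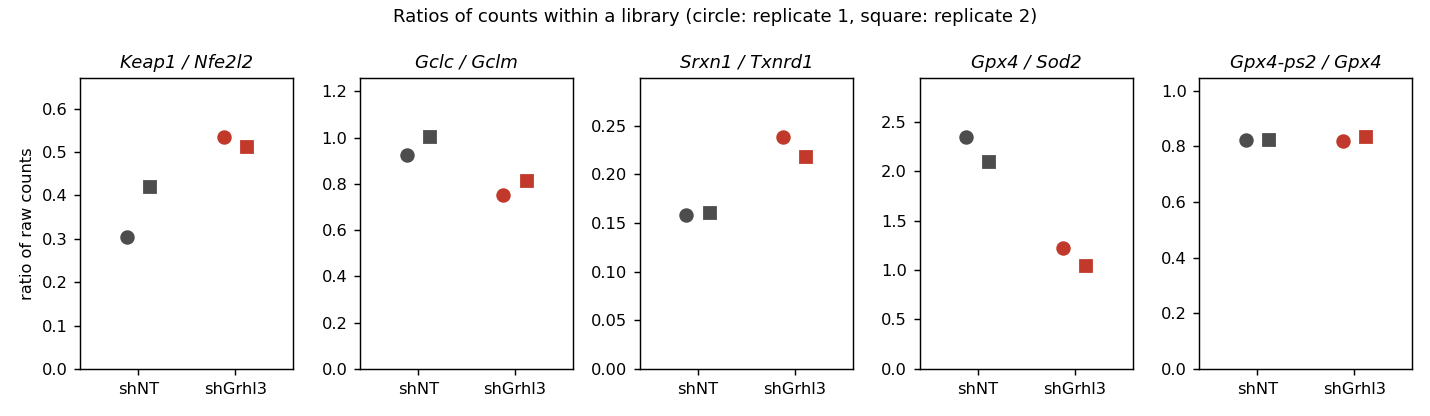
Ratios of raw counts between paired genes within each library, with the vertical axis starting at 0; the pairs were chosen by role after the counts were seen, and no test was run on them. Keap1 per Nfe2l2 and Srxn1 per Txnrd1 are higher in both shGrhl3 libraries, Gclc per Gclm and Gpx4 per Sod2 are lower, and Gpx4-ps2 per Gpx4 lies between 0.820 and 0.835 throughout.

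Around these 10 genes, 8 lists with 202 other genes of the pathway were examined. Of 181 tested rows, 39 were higher, 57 were lower and 85 did not pass, which is 53.0% called. Over all genes tested 35.3% were called, with 17.2% higher and 18.1% lower. Among genes with a mean level at least that of Nqo1 the share called was 42.9%. The median log2 fold change of the 181 rows was -0.00, beside -0.01 for all genes. Without shNT replicate 1 the count of higher genes was 25.

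**Figure D4:**
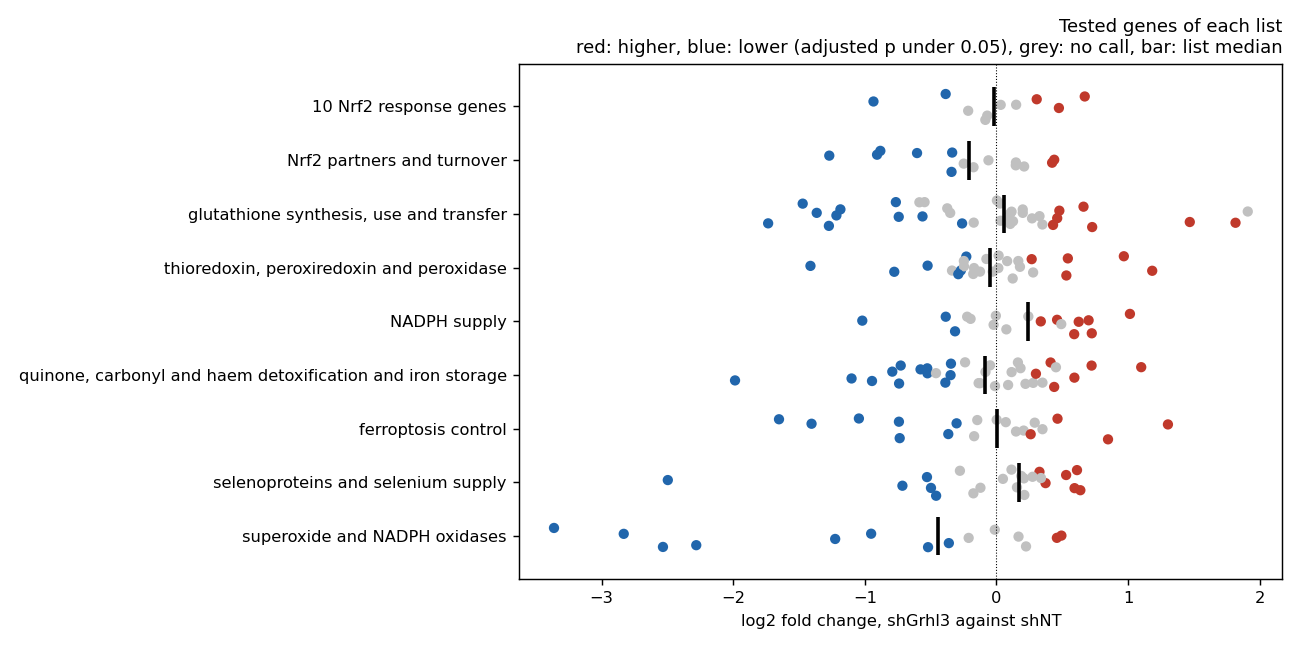
Log2 fold change (shGrhl3 against shNT) of each tested gene in the 10-gene group and the 8 pathway lists, with points coloured by call and list medians as bars. Most lists spread on both sides of 0, and the superoxide and NADPH oxidase list, with a median of -0.44, reaches furthest down to Cybb at -3.36.

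Partners and turnover factors of Nrf2 had 2 genes higher, 6 lower and 6 without a call (median -0.21). Rbx1, the RING subunit of the Cul3 ligase that receives Nrf2 from Keap1, was at 102 ± 0.610 CPM in shNT and fell to 54.5 ± 3.26 CPM in shGrhl3 (here and in what follows mean ± SD, n = 2), a log2 fold change of -0.91 (SE 0.09, adjusted p = 7.58e-08). Cul3 itself was at 156 ± 6.42 and 181 ± 7.95 CPM (log2 fold change 0.21, adjusted p = 0.0578) and passed as higher with library size scaling only (0.0344), without the rRNA-related rows (0.0460) and without shGrhl3 replicate 1 (0.0255). Of the small Maf partners, Maff fell from 50.9 ± 4.64 to 27.6 ± 0.994 CPM (adjusted p = 1.30e-06), and Mafg from 89.45 ± 1.47 to 70.6 ± 0.121 CPM (adjusted p = 0.00538, and 0.0633 without shNT replicate 2). Mafk was at 71.5 ± 7.11 and 79.2 ± 1.96 CPM (adjusted p = 0.256). Gsk3b, a kinase that marks Nrf2 for a separate ligase, fell from 178 ± 15.9 to 117 ± 16.6 CPM. Nfe2l1, the related factor Nrf1, rose from 589 ± 4.18 to 789 ± 16.6 CPM, with a log2 fold change of 0.42 (SE 0.08, adjusted p = 0.000137). Bach1, a repressor of the same elements, was at 110.5 ± 4.29 and 97.9 ± 4.50 CPM (adjusted p = 0.139). Bach2 was called lower, with 8.45 ± 0.545 CPM in shNT against 3.49 ± 0.921 CPM in shGrhl3 (adjusted p = 0.000167). Sqstm1, which competes for Keap1, was at 663 ± 29.4 and 734 ± 14.0 CPM (adjusted p = 0.151). Cul3, Mafg, Mafk, Bach1, Bach2 and Sqstm1 were named after their values were seen. Without shNT replicate 1 the higher count was 1.

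Of 36 tested genes of glutathione synthesis, use and transfer, 7 were higher, 10 lower and 19 without a call (median 0.06). Gstm1, a glutathione transferase, fell from 79.4 ± 8.75 to 23.8 ± 0.0129 CPM, with a log2 fold change of -1.74 (SE 0.11, adjusted p = 3.98e-11). Mgst1, a membrane-bound transferase with peroxidase activity, fell from 49.5 ± 8.13 to 20.4 ± 1.24 CPM, and Abcc4, an export pump, from 16.5 ± 0.553 to 6.40 ± 1.01 CPM. Chac1, which breaks glutathione down, rose from 10.3 ± 0.105 to 36.3 ± 0.613 CPM, with a log2 fold change of 1.82 (SE 0.13, adjusted p = 2.78e-10). Slc7a11, the cystine importer and a textbook Nrf2 target named after its values were seen, was at 9.84 ± 1.94 and 7.55 ± 1.51 CPM with overlapping libraries (adjusted p = 0.160). Glutathione reductase, Gsr, was at 25.9 ± 1.59 and 28.0 ± 0.0607 CPM (adjusted p = 0.496), and was also named after its values were seen. The 7 higher genes included Slc3a2 (1.35-fold, adjusted p = 0.000303), Gss (1.39-fold, adjusted p = 0.00407) and Abcc1 (1.58-fold, adjusted p = 5.97e-06). These were named after their values were seen as well. The Gss call was lost in 1 of 13 alternatives. With single libraries left out, the Gss log2 fold change was 0.36 to 0.59. The transferases form families of near-identical paralogs, whose reads could have been split. Without shNT replicate 1 the higher count was 4.

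The thioredoxin, peroxiredoxin and peroxidase list had 5 of 26 tested genes higher, 6 lower and 15 without a call (median -0.05). Txnip, which binds and inhibits thioredoxin, rose from 273 ± 6.25 to 621 ± 30.0 CPM, with a log2 fold change of 1.18 (SE 0.08, adjusted p = 1.09e-10). The sestrins, stress-induced regulators, split: Sesn2 rose from 63.2 ± 0.900 to 124 ± 9.14 CPM, and Sesn3 fell from 72.3 ± 2.16 to 27.2 ± 4.32 CPM. Catalase, Cat, fell from 62.2 ± 0.423 to 36.3 ± 2.38 CPM (adjusted p = 2.57e-06). Thioredoxin itself, Txn1, was at 158 ± 6.91 and 179 ± 15.1 CPM (adjusted p = 0.121; 0.0112 without shGrhl3 replicate 2; named after its values were seen). The count of lower genes was 3 without shNT replicate 1, 2 without shNT replicate 2 and 3 without shGrhl3 replicate 2, and the higher count was 3 without shNT replicate 1.

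Enzymes that supply NADPH, the reductant of these systems, had 7 of 17 tested genes higher, 3 lower and 7 without a call (median 0.24). Idh1, the cytosolic isocitrate dehydrogenase, fell from 193 ± 2.53 to 95.2 ± 6.49 CPM, with a log2 fold change of -1.02 (SE 0.09, adjusted p = 3.83e-09). The malic enzyme gene Me1 fell from 92.6 ± 1.91 to 70.9 ± 7.19 CPM. G6pdx, Pgd, Tkt and Taldo1 had no call (adjusted p = 0.981, 0.884, 0.125 and 0.0858), and were named after their values were seen. The folate enzymes Mthfd2 and Mthfd1 rose, from 34.3 ± 4.01 to 69.35 ± 8.14 CPM and from 48.7 ± 5.11 to 74.9 ± 3.75 CPM. H6pd, which makes NADPH in the endoplasmic reticulum, rose from 77.7 ± 4.05 to 128 ± 6.20 CPM. The count of lower genes was 5 without shGrhl3 replicate 1.

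Quinone, carbonyl and haem detoxification with iron storage had 6 of 33 tested genes higher, 12 lower and 15 without a call (median -0.08). Fth1, the ferritin heavy chain, fell from 731 ± 60.3 to 437 ± 31.1 CPM, with a log2 fold change of -0.74 (SE 0.08, adjusted p = 2.71e-07). The light chain Ftl1, named after its values were seen, was at 1125 ± 41.5 and 1024 ± 17.2 CPM (adjusted p = 0.177), and ferritin pseudogenes could have shared reads with both. Nqo2, the paralog of Nqo1, fell from 19.99 ± 0.852 to 10.3 ± 1.89 CPM (adjusted p = 4.44e-05), opposite to Nqo1. Akr1b3, an aldose reductase, fell from 67.1 ± 8.30 to a mean of 38.7 CPM, and Aldh2, the mitochondrial aldehyde dehydrogenase, rose from 144 ± 8.75 to 237 ± 14.7 CPM. The higher count was 3 without shNT replicate 1.

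Ferroptosis, the iron-dependent death by lipid peroxidation that Gpx4 restrains, was covered by 19 tested genes, of which 4 were higher, 7 lower and 8 without a call (median 0.00). Tfrc, the transferrin receptor that brings in iron, rose from 48.8 ± 2.02 to 121 ± 6.55 CPM, with a log2 fold change of 1.30 (SE 0.10, adjusted p = 2.94e-10). Ncoa4, which delivers ferritin for breakdown, fell from 30.5 ± 2.01 to 14.8 ± 0.593 CPM, and transferrin, Trf, from 15.0 ± 0.926 to 5.66 ± 0.320 CPM. Ptgs2, the inducible cyclooxygenase often used as a ferroptosis marker, fell from 15.5 ± 0.905 to 4.92 ± 0.684 CPM. The higher count was 1 without shNT replicate 1.

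Gpx4 and Txnrd1 need selenocysteine, so genes of other selenoproteins and of selenium supply were listed; of 22 tested, 6 were higher, 5 lower and 11 without a call (median 0.17). Secisbp2, which recruits the selenocysteine machinery to selenoprotein mRNAs, fell from 26.0 ± 0.581 to 15.8 ± 0.756 CPM, with a log2 fold change of -0.71 (SE 0.13, adjusted p = 0.000139). Selenon and Selenom, proteins of the endoplasmic reticulum, fell from 124 ± 5.78 to 87.6 ± 2.01 CPM and from 72.6 ± 2.93 to 50.3 ± 2.27 CPM. Selenoi, an enzyme of phospholipid synthesis, rose from 53.5 ± 1.72 to 80.8 ± 0.375 CPM.

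Genes for superoxide and NADPH oxidases, sources of the oxidants, had 2 of 14 tested genes higher, 8 lower and 4 without a call (median -0.44). Cybb, the catalytic subunit of the phagocyte oxidase, fell from 16.3 ± 2.27 to 1.58 ± 0.189 CPM, with a log2 fold change of -3.36 (SE 0.24, adjusted p = 1.62e-10). Cybb is typical of phagocytes, and the 20 leukocyte and macrophage markers summed to 812 ± 182 CPM in shNT and 143 ± 22.9 CPM in shGrhl3; their part in this result was not tested. Xdh, xanthine oxidoreductase, fell from 107 ± 4.08 to 45.7 ± 1.26 CPM (adjusted p = 7.68e-10). Ero1a, the oxidase of disulfide formation, rose from 209 ± 13.2 to 294.6 ± 19.1 CPM. The higher count was 1 without shNT replicate 1 and 4 without shGrhl3 replicate 2.

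Each of these calls by list is read against the 35.3% of all genes called in this comparison, and no list was tested as a set.

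**Figure D5:**
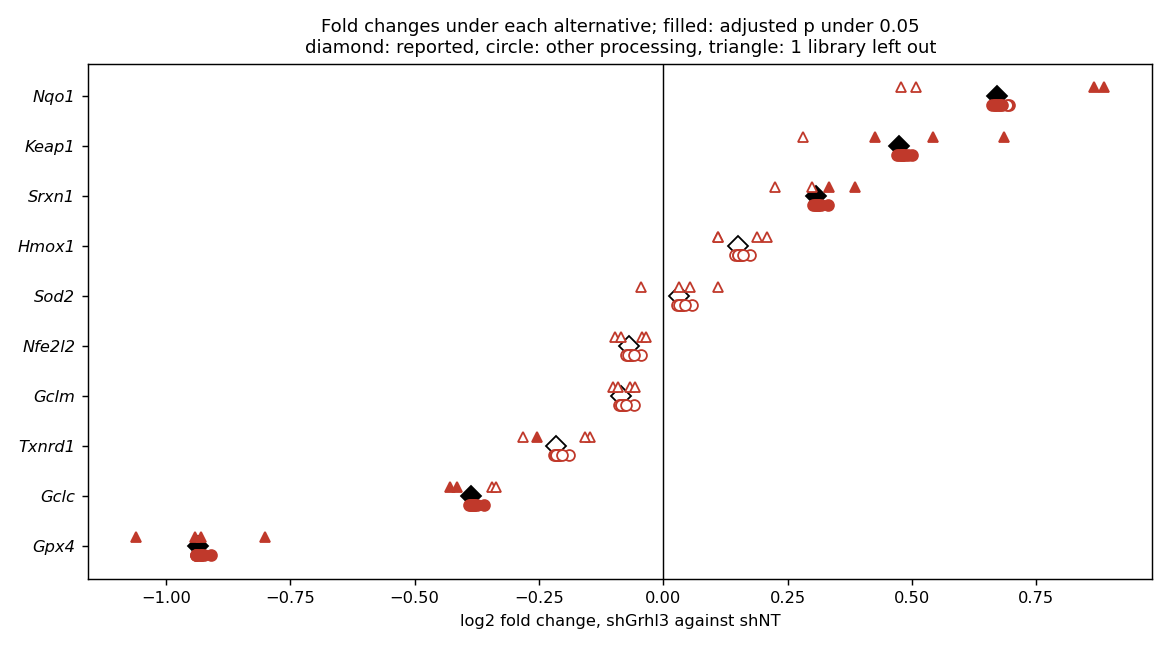
Log2 fold change of each of the 10 genes as reported (diamond), under 9 other ways of processing (circles) and with 1 of 4 libraries left out (triangles), filled where the adjusted p was under 0.05. Gpx4 is filled throughout, Nqo1, Keap1, Srxn1 and Gclc lose the call in places, and a Sod2 triangle lies below 0.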

How the data were processed

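The measurements are RNA-seq of 2 shNT and 2 shGrhl3 libraries. The deposited table holds raw counts per gene, whole numbers with no normalization. The build mm10 and the tools HISAT2 2.0.1, Bowtie2 2.2.6, cutadapt 1.9.1, ChIPseeker and MACS2 are named, without a role, per the submitters' processing notes. No counting program, annotation or strand setting is named there or in the file header. CUT&Tag libraries (4, H3K27ac) are not used here. The 1438 rows naming no gene held 0.00432% to 0.00872% of a library's counts and were left out.

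Genes passing filterByExpr (minimum count 10; 15324 genes) were tested on the counts with edgeR 4.0.16 in R 4.3.3 (TMM scaling, robust quasi-likelihood fit, no covariate, two-sided), with Benjamini-Hochberg adjustment over all of them and a threshold of 0.05. SE values and 95% intervals come from the F statistic. Chi-square per degree of freedom was 15.2 and 9.18 within groups and 57.2 to 72.2 between them, so no library repeats another. Alternatives used DESeq2 1.42.0, limma 3.58.1, other scalings and filters, and left-out libraries.

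The members and lists were chosen with earlier results of these data known. Named genes are the 10 members, from each list up to 4 called genes of lowest p and, where few passed in a direction, some of those, with others said to be named after their values were seen. Marker lists of endothelial, smooth muscle and epithelial cells summed to 59.2 ± 2.83, 205 ± 3.67 and 9.91 ± 0.496 CPM in shNT and 45.5 ± 3.67, 271 ± 32.4 and 13.0 ± 1.43 CPM in shGrhl3 (SD, n = 2). Gene positions and promoters are from RefSeq (GRCm38.p6). One result is not reported here.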

Additional observations from a re-analysis of the deposited data

How the results depend on the processing

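Of the 10 genes, Gpx4 kept its call under all alternatives and Nfe2l2, Hmox1 and Gclm stayed without one. Without 1 library, 1 to 2 of the 10 were called higher and 1 to 3 lower, against 3 and 2 with all libraries; pathway list genes called higher ranged from 25 to 46 and lower from 40 to 55. The fits without a library rest on 1 sample in a group, which is assumed to vary like the others. The DESeq2 Wald test called 1 of the 10 higher. Sod2 ranged from -0.0459 (without shNT replicate 1, the reverse sign) to 0.111 (without shNT replicate 2). The remaining counts over all genes and over the pathway lists stayed within 1.5 times. Deviations of same-numbered libraries from their group means had a correlation of -0.06. A single correlation cannot exclude that same-numbered libraries share a culture or preparation, which the labels do not state. With the replicate block 5042 genes passed, against 5402, and 2 of the 10 genes were higher and 2 lower; the Srxn1 adjusted p was 0.0531 there, beside 0.0202 to 0.308 over its alternatives. Scaling by library size moved the median of all genes from -0.01 to 0.02. Depth limits Nqo1 most among the 10, at 65 to 162 counts and with an SE of 0.23.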
